A study of Homo sapiens with 6 samples.

Results

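The expression of 10 genes of melanin pigmentation was examined in ARPE-19, a human line of retinal pigment epithelium (RPE) origin that has long been in culture, and in its POLDIP2 KO line. The genes were listed by their roles in the melanosome, namely PMEL, GPNMB, MLANA, TYR, TYRP1, DCT, OCA2, SLC45A2, GPR143 and RAB27A, and all 10 were found among the 37902 genes of the expression table. WT is ARPE-19 without the knockout, and the methods describe no transduction or selection of it. POLDIP2 KO cells were made from it by lentiviral delivery of SpCas9 together with a guide RNA against the POLDIP2 coding sequence, followed by puromycin, and no step of single-cell cloning is described. Both lines were kept under regular maintenance and sampled at day 3, with 3 biological replicates each, and polyadenylated RNA was sequenced as stranded libraries. The replicates are separate samples of 1 line each, so their spread does not cover other knockout lines or other donors. Where 3 values are given for a line, they follow the replicate numbers 1, 2 and 3.

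Melanin is made in the melanosome, an organelle related to the lysosome. Its fibrils are built from PMEL, and melanin is then laid down on them by tyrosinase (TYR) and the related enzymes TYRP1 and DCT, while OCA2 and SLC45A2 set the ion and solute conditions in the organelle. In the RPE, melanosomes absorb stray light and move within the cell. The transcription factor MITF drives many of the genes concerned, in RPE cells as in melanocytes. MITF binds the M-box, whose core is TCATGTG.

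The libraries held 31532797 to 45795509 reads, recovered from the normalised counts as described in the processing. POLDIP2 was between 3919 and 4827 normalised counts in the WT libraries and between 1063 and 1248 in the POLDIP2 KO libraries, so each library followed its label. Of 9 RPE markers, RPE65, RGR and TTR had 0 reads in every library, and BEST1, RDH5, RLBP1, LRAT, SERPINF1 and MERTK were detected in every library. By limma, LRAT, the lecithin retinol acyltransferase, was the 1 marker of the 6 with an unadjusted p under 0.05 (log2 fold change -1.27, adjusted p = 0.731), where 3.47% of all genes were lower at that threshold. Of the 6, 5 had lower values in POLDIP2 KO (median log2 fold change -0.46), and LRAT and SERPINF1 were lower without overlap between the lines, as were 5.44% of all genes. The summed level of the RPE markers, to which BEST1 and RDH5 added most over the 6 libraries, was 544 to 1192 normalised counts in WT and 588 to 1096 in POLDIP2 KO. Part of the RPE marker list was therefore detected, while the visual cycle isomerase RPE65 was not. Per kb of exon, the 6 detected markers had means from 6.32 (LRAT) to 82.5 (RDH5) normalised counts. The median of the genes tested was 166 on that scale. Among the melanocyte and neural crest markers, SOX10, KIT and S100B had 0 reads throughout and MIA had 1 read in all. ERBB3 was low, with 15, 10 and 5 reads in WT and 24, 28 and 16 in POLDIP2 KO. It was higher in POLDIP2 KO without overlap, as were 5.46% of all genes, and its part in the values of the pigment genes was not tested. Among 7 macrophage markers, TYROBP and C1QA had 0 reads and PTPRC had at most 7, whereas the lysosomal membrane protein CD68 had 1509 to 2615. CSF1R, ITGAM and CD14 reached at most 51, 36 and 8 reads. CSF1R had 48.2, 24.1 and 15.7 normalised counts in WT and 4.92, 14.7 and 11.9 in POLDIP2 KO. It was lower without overlap, as were 5.44% of all genes, whereas PTPRC had 0 reads in WT and 1, 4 and 7 in POLDIP2 KO. The summed level of the list, mostly from CD68, was 1732 to 2243 normalised counts in WT and 1882 to 2160 in POLDIP2 KO.

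Mesenchymal markers separated some libraries from the rest. COL1A2, a chain of type I collagen, had 499 reads in POLDIP2 KO replicate 1 and between 0 and 10 in the other libraries. The summed level of the 6 mesenchymal markers was 6784, 2106 and 2909 normalised counts in WT and 14289, 2075 and 4841 in POLDIP2 KO. It was thus highest in the replicate 1 libraries of both lines, mostly through COL1A1 and PDGFRB. All 4 mesenchymal markers tested also had higher values in POLDIP2 KO, as had 7334 of the 14684 genes tested. Their median log2 fold change was 1.55, and 0 of them were called, against 0.17% of all genes. COL1A1 was higher in POLDIP2 KO in 3 of 3 pairs of the same replicate number, at 2147, 320 and 677 normalised counts in WT and 6956, 760 and 1953 in POLDIP2 KO. With the replicate number in the fit it was the 1 marker of the 4 called (limma adjusted p = 0.0436), where 0.204% of all genes were. The part of these markers in the values of the pigment genes was not tested. COL3A1, LUM and DCN reached 101, 8 and 11 reads, in each case in POLDIP2 KO replicate 1.

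To show where the M-box core lies, promoter windows of 250 bases before to 50 bases after the RefSeq start sites were searched for TCATGTG and its reverse complement CACATGA. RefSeq windows (GRCh38.p14) were matched for 8 of the 10 genes, in 13 windows. The core was found in those of GPNMB, TYRP1, TYR, DCT and GPR143, and the letters do not occur in the windows of MLANA, OCA2 and RAB27A. PMEL and SLC45A2 were not matched. The core was in 5 of the 13 windows, where 2.92% of all 35116 promoter windows searched held it. By gene, 3.59% of the 27305 genes with such windows held it. The 5 stretches below come from all the windows of these genes that held the core. The RNA levels of the genes differ widely, from GPNMB, with 12024 reads or more in every library, to DCT with almost none. Each is written 5′ to 3′ on the strand of the gene and leaves out bases of annotated exons of that gene, and capitals mark the match in either orientation.

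GPNMB chr7:23246525-23246696 plus strand: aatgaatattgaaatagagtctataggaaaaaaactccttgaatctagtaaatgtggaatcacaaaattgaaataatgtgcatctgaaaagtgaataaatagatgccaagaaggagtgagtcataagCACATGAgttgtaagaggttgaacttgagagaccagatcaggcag
TYRP1 chr9:12693135-12693308 plus strand: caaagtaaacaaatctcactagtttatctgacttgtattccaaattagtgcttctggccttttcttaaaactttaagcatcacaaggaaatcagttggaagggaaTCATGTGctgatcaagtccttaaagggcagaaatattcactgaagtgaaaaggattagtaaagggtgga
TYR chr11:89177655-89177874 plus strand: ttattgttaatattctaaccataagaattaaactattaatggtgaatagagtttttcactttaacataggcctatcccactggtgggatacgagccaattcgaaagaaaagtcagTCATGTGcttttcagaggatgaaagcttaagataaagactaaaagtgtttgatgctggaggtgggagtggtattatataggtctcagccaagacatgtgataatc
DCT chr13:94479683-94479902 minus strand: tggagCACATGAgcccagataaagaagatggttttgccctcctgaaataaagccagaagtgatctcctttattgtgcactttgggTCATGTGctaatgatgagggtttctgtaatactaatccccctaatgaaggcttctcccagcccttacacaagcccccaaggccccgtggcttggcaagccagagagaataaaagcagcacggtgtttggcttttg
GPR143 chrX:9765848-9766067 minus strand: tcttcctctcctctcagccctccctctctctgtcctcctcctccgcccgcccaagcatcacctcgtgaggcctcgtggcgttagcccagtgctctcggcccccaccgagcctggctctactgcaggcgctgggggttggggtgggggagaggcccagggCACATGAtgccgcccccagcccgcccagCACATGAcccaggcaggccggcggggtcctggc

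The stretches of TYR and DCT end at the base before the gene in GENCODE 44. Those of GPNMB, TYRP1 and GPR143 lie inside the span of the gene, in introns of its longer transcripts. Counted from the RefSeq start, the match began at base -105 in TYR, at -145 in TYRP1, at -215 and -135 in DCT, and at -61 and -33 in GPR143. GPNMB held it at -123 and again at -62, the second in exonic bases not shown. One of the 2 DCT windows held the core. These are matches of letters, and binding was not measured.

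Levels differed widely among the 10 genes. On the scale of normalised counts per kb of exon, averaged over the 6 libraries, GPNMB was highest at 3329, followed by GPR143 at 495, RAB27A at 150, PMEL at 20.5 and TYRP1 at 3.65. SLC45A2 followed at 1.73, MLANA at 1.46, TYR at 0.471, DCT at 0.106 and OCA2 at 0.105. The ranges of the 6 libraries did not overlap between neighbours from GPNMB down to TYRP1. From TYRP1 downwards, each gene overlapped with its neighbour in this order. The median of the 14684 genes whose mean reached 10 normalised counts was 166 per kb. GPNMB and GPR143 lay above it, RAB27A close to it, and the other 7 genes below. This scale depends on the merged exon length, which was 11345 bases for RAB27A and 2369 for GPR143. Without division by length, RAB27A (mean 1703 normalised counts) was above GPR143 (1173). Among 19909 genes ranked on the same scale, GPNMB was at rank 329, GPR143 at 3010, RAB27A at 7238, PMEL at 11636 and TYRP1 at 13910. GPNMB alone took 80.5% to 89.7% of the reads of the 10 genes. Together the 10 genes took 0.0414% to 0.0749% of all reads.

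**Figure D1:**
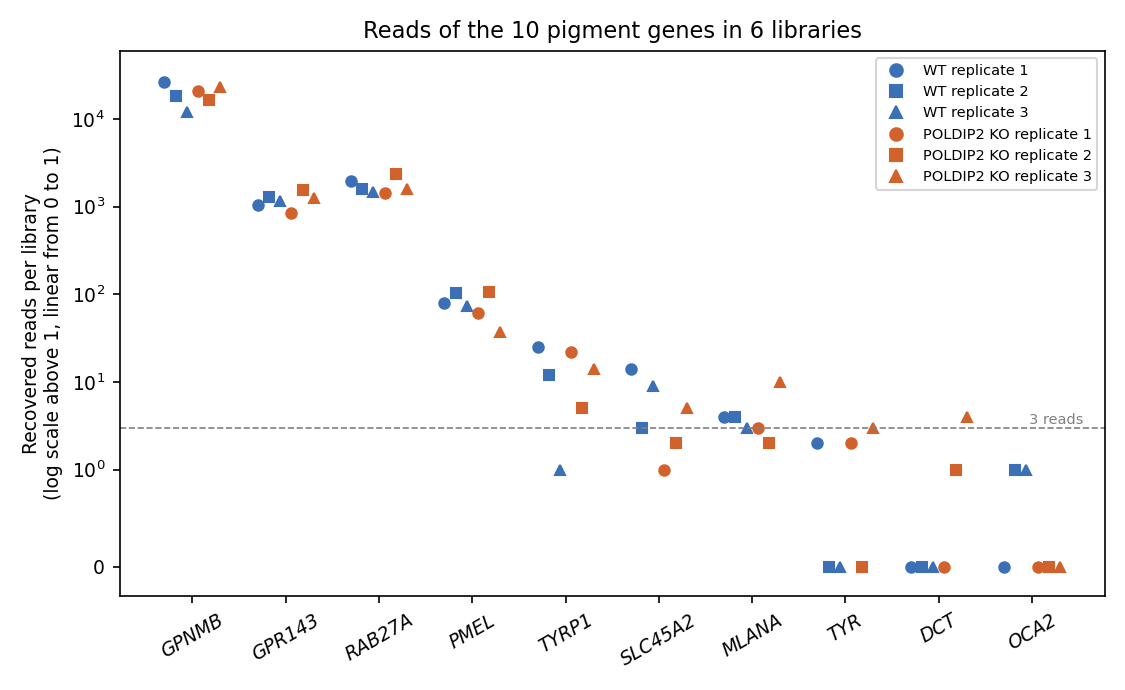
Recovered reads of each pigment gene in each library (vertical axis, logarithmic above 1 and linear from 0 to 1), with WT in blue, POLDIP2 KO in orange, the replicate number as the marker shape, and a dashed line at 3 reads. GPNMB, GPR143 and RAB27A lie above 800 reads in every library, PMEL between 37 and 105, and TYR and OCA2 at 3 reads or fewer throughout.

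Several of the genes were near zero in this line. With 3 reads in a library taken as the floor, equal to 2.44 to 3.69 normalised counts, TYR and OCA2 were at or under the floor in all 6 libraries. MLANA, DCT and SLC45A2 lay above the floor in some libraries but had a mean under 10 normalised counts, and were therefore not part of the test. PMEL, GPNMB, TYRP1, GPR143 and RAB27A passed the filter, which makes 5 of 10. TYRP1 passed it only narrowly. The 6 low genes TYR, TYRP1, DCT, OCA2, SLC45A2 and MLANA together had 10 to 45 reads per library, and at this depth a difference between the lines in TYR, DCT or OCA2 was not detectable. The floor covers counting error only, whereas the confidence intervals of fold changes given for tested genes come from the spread between libraries.

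POLDIP2 KO and WT were compared with limma on log2(normalised count + 1) over the 14684 genes that passed the filter. A gene was called at a Benjamini-Hochberg adjusted p under 0.05 with a fold change over 1.5. The study applied these thresholds with DESeq2. It reported many more genes than limma called here, which were 12 higher and 13 lower in POLDIP2 KO. Fold changes of low genes such as TYRP1 depend on the added 1 and on the tool. None of the 5 pigment genes tested was called (0 of 5, with 0.17% of all genes tested called), and 0 of 5 had an unadjusted p under 0.05, against 6.48% of all genes. The edgeR and DESeq2 tests on the recovered reads also called 0, where they called 0.116% and 1.68% of all genes. All 5 had a limma adjusted p of 0.9998. In none of the 5 did the libraries of the lines separate fully, as they did in 10.9% of all genes tested. The lines did not separate in the pigment genes below the filter either, where counts near 0 leave little room for it. Fewer cells with a transcript and less of it per cell cannot be told apart in these bulk samples.

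Among the fibril and matrix proteins, PMEL (ENSG00000185664, chromosome 12 of GRCh38, 55954105 to 55973317, minus strand) is the amyloid-forming protein of the melanosome core. It had 74.6, 103 and 76.2 normalised counts in WT and 75.0, 85.5 and 36.7 in POLDIP2 KO. The lines overlapped, with POLDIP2 KO replicate 3 lower than all other libraries. The log2 fold change was -0.43 (95% confidence interval -1.32 to 0.46). The interval includes both no change and a fall of more than 1.5-fold. PMEL shares 89 exon bases with CDK2 on the opposite strand.

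GPNMB (ENSG00000136235, chromosome 7, 23235967 to 23275108, plus strand) is a transmembrane glycoprotein related in sequence to PMEL, found in melanosomes and in lysosomes of phagocytic cells. Its normalised counts were 25095, 18137 and 12555 in WT and 25500, 13550 and 23132 in POLDIP2 KO. Each line held libraries near the top and near the bottom of this range. The means were 18595 ± 6283 in WT and 20727 ± 6327 in POLDIP2 KO (SD, n = 3 libraries each). GPNMB had a log2 fold change of 0.16, with 95% confidence limits of -0.59 and 0.91, so that a change of 1.5-fold in either direction lies between them. It was -0.094 without WT replicate 3 and -0.01 without POLDIP2 KO replicate 1. Per kb, GPNMB was 98.5 to 391 times as high as PMEL within the same library.

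MLANA (ENSG00000120215, chromosome 9, 5890889 to 5910606, plus strand) is a small membrane protein that binds PMEL and takes part in its maturation, and it is the Melan-A antigen of pigment cells. It had 4, 4 and 3 reads in WT and 3, 2 and 10 in POLDIP2 KO. The 10 reads of POLDIP2 KO replicate 3 stood above the other 5 libraries, which lay at or within 1 read of the floor.

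All 3 melanin enzymes were low. TYR (ENSG00000077498, chromosome 11, 89177875 to 89295759, plus strand), which catalyses the first step of melanin synthesis from tyrosine, had 2, 0 and 0 reads in WT and 2, 0 and 3 in POLDIP2 KO. These counts do not distinguish the lines, and the TYR-like pseudogene TYRL had 2 reads in POLDIP2 KO replicate 1 and 0 elsewhere, so single reads could be divided between the copies. DCT (ENSG00000080166, chromosome 13, 94436811 to 94479682, minus strand), the dopachrome tautomerase, had 0 reads in every WT library, and 0, 1 and 4 in POLDIP2 KO. Only the last of these exceeds the 3 reads that a count of 0 allows.

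TYRP1 (ENSG00000107165, chromosome 9, 12685439 to 12710285, plus strand), the tyrosinase-related protein that acts later in eumelanin synthesis and stabilises TYR, was the highest of the enzymes per kb. It had 25, 12 and 1 reads in WT and 22, 5 and 14 in POLDIP2 KO. Spread within each line was wide, from the floor to more than 20 reads in WT, and the lines overlapped. The corresponding means were 12.2 ± 11.3 and 15.0 ± 11.5 normalised counts (SD, n = 3 libraries each), and the log2 fold change was 0.56, with 95% confidence limits of -2.01 and 3.14. It was 0.26 by edgeR and 0.28 by DESeq2 on the recovered reads, and -0.48 by limma without WT replicate 3. TYRP1 shares 102 exon bases with the antisense gene LURAP1L-AS1.

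Of the transporters, OCA2 (ENSG00000104044, chromosome 15, 27754875 to 28099315, minus strand), an anion transporter of the melanosome membrane, had 0, 1 and 1 reads in WT and 0 in every POLDIP2 KO library. SLC45A2 (ENSG00000164175, chromosome 5, 33944623 to 33984693, minus strand), a sugar and proton transporter that bears on melanosome pH, had 14, 3 and 9 reads in WT and 1, 2 and 5 in POLDIP2 KO. For SLC45A2 the POLDIP2 KO library was below the WT library of the same number in 3 of 3 pairs. The ranges overlapped, however, since WT replicate 2 with 3.01 normalised counts lay below POLDIP2 KO replicate 3 with 4.96. With the filter on low values removed, 0 of the 10 genes had an unadjusted limma p under 0.05, SLC45A2 included.

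GPR143 and RAB27A were well measured and close between the lines. GPR143 (ENSG00000101850, chromosome X, 9725346 to 9786297, minus strand), the ocular albinism receptor of the melanosome membrane, had 988, 1296 and 1199 normalised counts in WT and 1032, 1272 and 1250 in POLDIP2 KO. The replicate 1 library was the lowest in either line. The log2 fold change was 0.03, and the 95% confidence interval of the fold, from 0.800 to 1.31, lies within 1.5-fold in both directions. RAB27A (ENSG00000069974, chromosome 15, 55202966 to 55319113, minus strand), the small GTPase that links melanosomes to myosin motors, had 1853, 1576 and 1525 normalised counts in WT and 1781, 1918 and 1567 in POLDIP2 KO. Its libraries were interleaved. The log2 fold change was 0.09, and the interval of the fold ran from 0.861 to 1.31, again within 1.5-fold. RAB27A shares 183 exon bases with PIGBOS1 on the same strand and 154 with PIGB on the opposite strand.

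**Figure D2:**
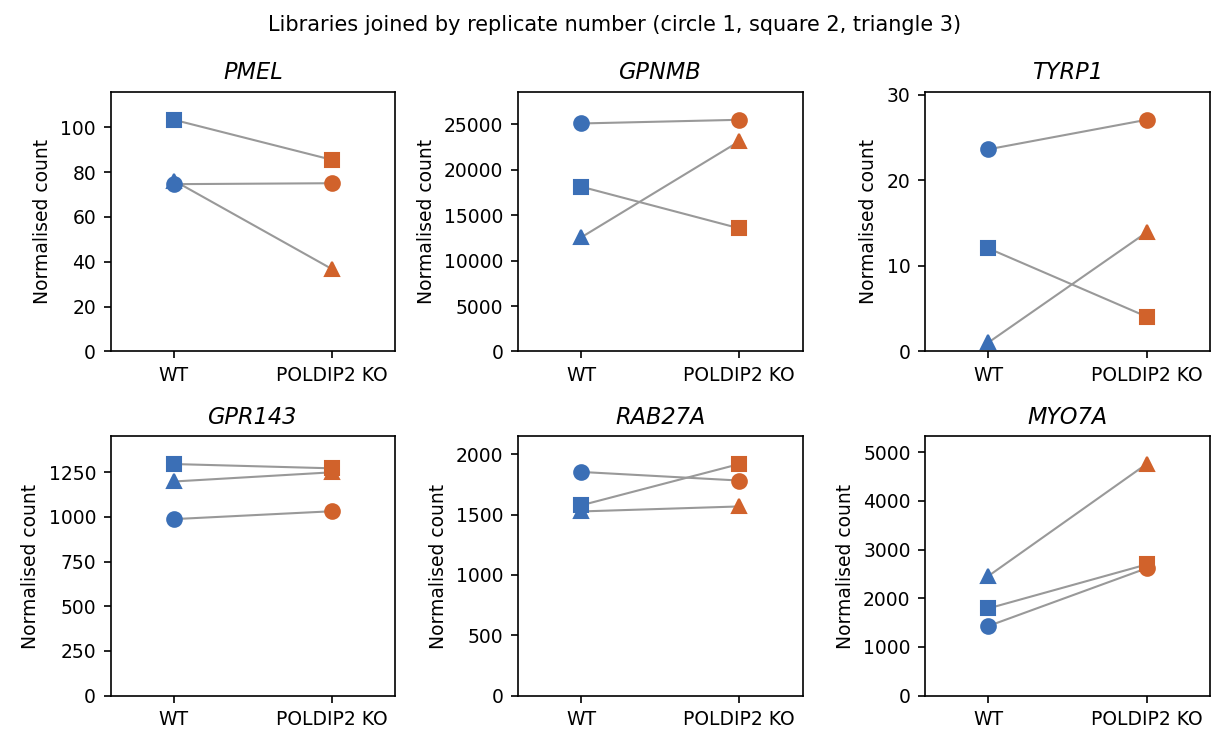
Normalised counts (vertical axis, from 0) of the 5 tested pigment genes and of MYO7A in WT (blue) and POLDIP2 KO (orange), with libraries of the same replicate number joined by a line. GPNMB and TYRP1 differ little in pair 1, are lower in POLDIP2 KO in pair 2 and are higher in POLDIP2 KO in pair 3, whereas MYO7A is higher in POLDIP2 KO in all 3 pairs.

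The genes were next compared by replicate number. After centring within each line, libraries of the same number correlated at 0.315, 0.137 and 0.129 for replicates 1, 2 and 3. Other combinations had -0.259 to 0.147, so only replicate 1 stood apart. The numbers were treated as pairs, which these values do not establish for replicates 2 and 3. In the POLDIP2 KO library of each pair relative to WT, GPNMB had log2 differences of 0.02, -0.42 and 0.88 in pairs 1, 2 and 3, and TYRP1 had 0.19, -1.36 and 2.87. Both genes thus had the same sign in each pair, and neither kept 1 direction. PMEL had log2 differences of 0.01, -0.27 and -1.03, and RAB27A of -0.06, 0.28 and 0.04. With replicate number added to the fit as a block, the lowest limma adjusted p of the 5 genes was 0.69, for PMEL, and 0 of 5 were called, against 0.204% of all genes.

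Differences between replicate numbers were tested with limma's F test on 2 degrees of freedom beside the line. Averaged over both lines, GPNMB was at 25297, 15843 and 17843 normalised counts in replicates 1, 2 and 3, and TYRP1 at 25.3, 8.06 and 7.47. GPR143 had the lowest F test p of the 5, with 1010, 1284 and 1224 normalised counts (limma adjusted p = 0.282). The adjusted p was 0.382 for GPNMB, 0.425 for PMEL, 0.474 for TYRP1 and 0.525 for RAB27A. None of the 5 genes was called by replicate number, nor had an unadjusted p under 0.05, against 0.913% of all genes called and 18.9% at the unadjusted threshold.

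GPNMB and TYRP1 ordered the 6 libraries identically. Both were highest in POLDIP2 KO replicate 1, followed by WT replicate 1, POLDIP2 KO replicate 3, WT replicate 2, POLDIP2 KO replicate 2 and WT replicate 3. Over the 6 libraries, the Pearson correlation of their log2 values was 0.96 (exact permutation p = 0.00139, 0.0139 adjusted over the 10 pairs of tested pigment genes) and Spearman's rho was 1 (exact permutation p = 0.00278, adjusted 0.0278). Without WT replicate 3 and POLDIP2 KO replicate 2, the libraries farthest from the median of GPNMB, r was 0.856. Inside either line, with n = 3 libraries, r was 0.97. The permutations treat the libraries as exchangeable, although they share lines and replicate numbers, and TYRP1 rests on 1 to 25 reads. The other 9 pairs had adjusted p values of 0.773 or more for r. The summed mesenchymal markers given above had the same 3 libraries at the top, in the same order as GPNMB and TYRP1, and their part in this pattern was not tested.

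**Figure D3:**
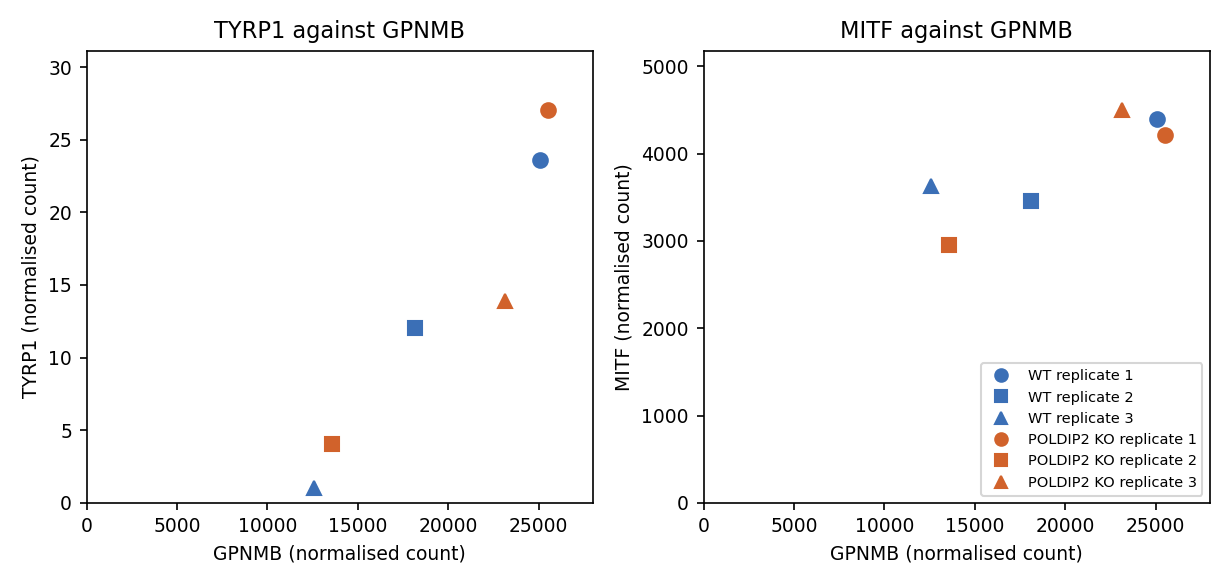
TYRP1 (left, vertical axis) and MITF (right, vertical axis) against GPNMB (horizontal axes), all in normalised counts, with 1 point per library, WT in blue and POLDIP2 KO in orange. TYRP1 is higher in every library where GPNMB is higher, while MITF keeps to a narrower range of 2955 to 4503.

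The correlation of TYRP1 with GPNMB was not particular to this pair. Among 14683 other genes tested, 41 correlated more closely with GPNMB than TYRP1 did, and 210 genes had r over 0.9. The genes most like GPNMB over the 6 libraries were RP2 (r = 0.990), ENSG00000283847 (0.988) and BLTP1 (0.985). For TYRP1 they were PAM (0.998), TTC30A (0.992) and KLHDC2 (0.988), for PMEL they were NT5C3A (0.990), FOXP4 (0.986) and CD274 (0.985), and for GPR143 they were LGALSL (0.997), RPS23 (0.996) and TFB2M (0.995). RAB27A was most like WDPCP (0.985), KCND2 (0.983) and COPZ2 (0.972). With 6 libraries and this many genes, high values of r are common, and they are given as a description.

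Among the transcription factors of pigment cells, MITF had 4401, 3463 and 3629 normalised counts in WT and 4217, 2955 and 4503 in POLDIP2 KO. MITF overlapped between the lines, and its log2 fold change was 0.01 (95% interval of confidence -0.43 to 0.44). It was thus readily detected in libraries where TYR, DCT and OCA2 were near zero. Its correlation with GPNMB was 0.83 (exact permutation p = 0.0556, adjusted 0.487 over 18 pairs of 9 factors with GPNMB and TYRP1; rho 0.60), and none of the 18 pairs passed the adjustment. Of the 12 factors listed, 9 were tested and 0 were called, against 0.17% of all genes. TFE3, which is closely related to MITF, was the highest per kb (1410), OTX2, an RPE specifier, had the lowest log2 fold change (-0.26), and TFEC, another relative of MITF, the highest (0.63). SOX10 was at 0 reads in all libraries and PAX3 had 1 read in all.

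The wider list of melanosome genes held 67 members, of which 66 were in the table and 55 were tested. None of the 55 was called, against 0.17% of all genes. Of the 55, 26 had higher and 29 lower values in POLDIP2 KO. The median log2 fold change was -0.00, as it was over all genes tested (-0.00). One gene, MYO7A, had an unadjusted p under 0.05 and was higher in POLDIP2 KO, as were 3.0% of all genes. With the replicate block, 3 of the 55 had an unadjusted limma p under 0.05, against 11.1% of all genes. In 5 of the 55 the lines did not overlap, with MYO7A and the AP-3 subunit AP3M1 higher in POLDIP2 KO and DTNBP1, HPS1 and HPS4, which serve cargo sorting in BLOC complexes, lower. These are 2 higher and 3 lower genes of 55, against 5.46% and 5.44% of all genes tested. Of the genes not tested, POMC, ASIP, KIT, EDN3 and TRPM1 were at 0 reads in all libraries, and SLC24A5 had 1 read in all.

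**Figure D4:**
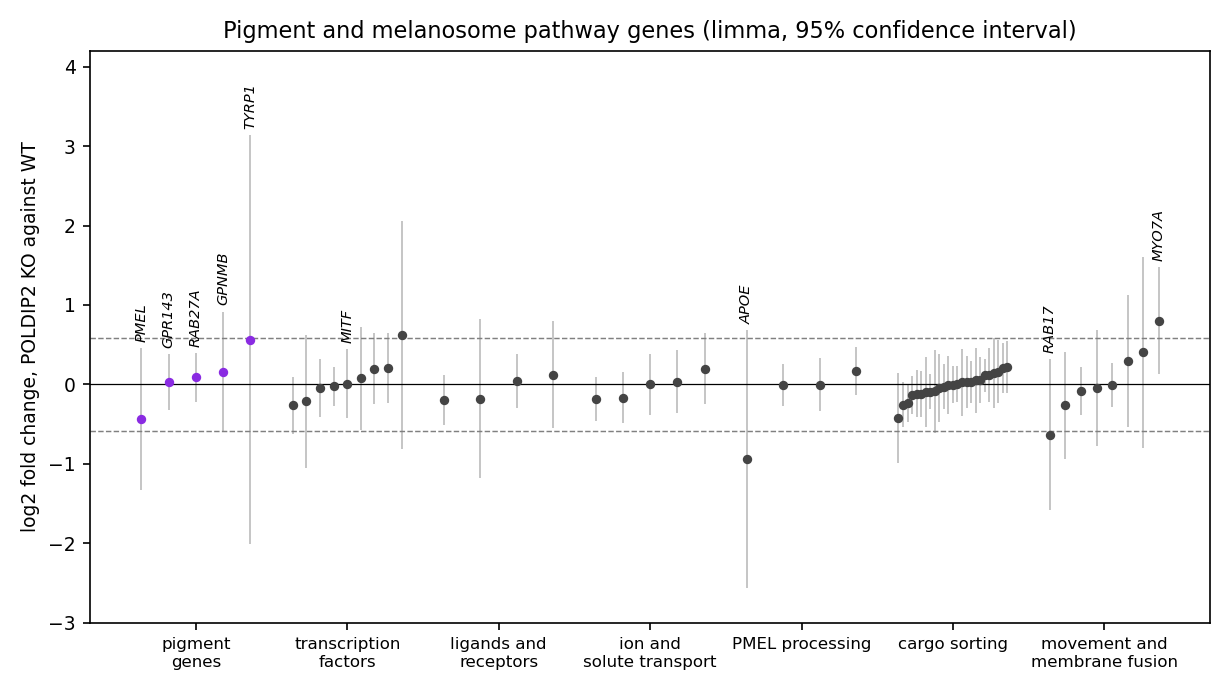
Log2 fold change of POLDIP2 KO against WT (vertical axis) for the 5 tested pigment genes (purple) and the 55 tested genes of the melanosome pathway by role (grey), with bars for the 95% confidence interval and dashed lines at 1.5-fold in each direction. Most points lie between the dashed lines, the interval of TYRP1 is the widest of the pigment genes, and that of MYO7A leaves out 0.

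MYO7A is the myosin that carries melanosomes and phagosomes in the RPE. It had 1430, 1792 and 2458 normalised counts in WT and 2615, 2694 and 4756 in POLDIP2 KO, so that every POLDIP2 KO library lay above every WT library. The log2 fold change was 0.80 with a standard error of 0.286 and 95% confidence limits of 0.13 and 1.48, and the limma adjusted p was 0.633. MYO7A was higher in POLDIP2 KO by log2 differences of 0.87, 0.59 and 0.95 in pairs 1, 2 and 3. In the blocked limma fit its adjusted p was 0.0748. DESeq2 on the recovered reads gave an adjusted p of 0.189 without the block, in a test that called 1.68% of all genes, and 2.26e-07 with it, where 2.57% were called. Whether MYO7A was called therefore depended on the fit. Of the other motor and fusion genes, RAB17 had the lowest log2 fold change (-0.63, limma adjusted p = 0.986) and RAB11B was the highest per kb (1079). MLPH, an adaptor between RAB27A and myosin Va, was below the filter with 0 to 11 reads. MYRIP, listed in the same role, passed the filter. It had 379, 581 and 405 normalised counts in WT and 257, 494 and 407 in POLDIP2 KO, and the lines overlapped.

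In the remaining roles, no gene had an unadjusted p under 0.05 by limma without the replicate block. With the block, 1 of the 25 cargo sorting genes had, against 11.1% of all genes. The 4 tested ligands and receptors lay between MGRN1 at a log2 fold change of -0.20 and MC1R, the melanocortin receptor, at 0.12, with ATRN the highest per kb (408). KITLG, the ligand of KIT, differed between replicate numbers, with 548, 1109 and 1286 normalised counts averaged over both lines in replicates 1, 2 and 3 (limma F test adjusted p = 0.049988), and was the only gene of the 55 called there, where 0.913% of all genes were. At an unadjusted p under 0.05, 13 of the 55 passed the F test, against 18.9% of all genes. The 5 tested ion and solute transporters lay between OSTM1 (-0.19) and the copper transporter ATP7A (0.20), with CLCN7 the highest per kb (410). Of the 4 genes that process PMEL, APOE had the lowest log2 fold change (-0.94) and CD63, the tetraspanin that sorts PMEL, the highest (0.16) as well as the highest level per kb (6468). The APOE value rests on WT replicate 2 with 69.2 normalised counts, against 9.84 to 17.0 in the other libraries. The 25 cargo sorting genes lay between BLOC1S3 (-0.43) and HPS3 (0.22), and RAB32, a GTPase of melanosome cargo delivery, was the highest per kb (2779).

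Lysosome genes were examined because the melanosome is a related organelle and GPNMB is found in both. All 17 were tested, and the median log2 fold change was 0.02. By limma, 0 were called, against 0.17% of all genes, and 0 had an unadjusted p under 0.05, against 6.48%. With the replicate block, 1 of the 17 had such a p, against 11.1% of all genes. The protease gene CTSD had the highest log2 fold change (0.41) and the highest level per kb (13704), and NEU1 the lowest log2 fold change (-0.43). Of the 17, 2 were higher in POLDIP2 KO without overlap and 0 were lower, against 5.46% and 5.44% of all genes. LAMP2, a protein of the lysosomal membrane, was 1 of the 2 and did not pass the test (limma adjusted p = 0.953).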

How the data were processed

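RNA of 3 WT and 3 POLDIP2 KO samples was studied through the deposited normalised counts, a signal scaled by the authors. They estimated transcripts with Salmon 1.8, combined them per gene on GRCh38 (tximport), and applied size factors of DESeq2 1.34.0. The annotation release is not given in the sources used here, and 34152 of 37902 genes have a GENCODE 44 symbol. All columns were used (0 left out). Values divided by the step of 1 read were whole within 0.001 in 100% of cases, which says little in WT replicate 2 and POLDIP2 KO replicate 3, where the step is near 1.

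Genes with a mean of at least 10 were tested with limma 3.58.1 (R 4.3.3; lmFit, eBayes with trend, pseudocount 1, Benjamini-Hochberg adjustment), recovered reads also with DESeq2 1.42.0 and edgeR 4.0.16, and the steps were tested on simulated data. Python 3.11.15, pandas 2.3.3, scipy 1.17.1 and matplotlib 3.10.9 were used for the rest. Exon lengths are merged GENCODE 44 exons. Depth was 31532797 to 45795509 reads per library. Alternatives were the replicate block, both count tools, quantile normalisation, robust eBayes, other pseudocounts (0.5 and 5), no filter and a minimum mean of 50, and leaving out each library. An exact permutation test of 3 against 3 libraries cannot give a p under 0.1.

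Values centred within each line were correlated over 14684 genes. Libraries of the same number had r of 0.129 to 0.315, all above 0.1, and other combinations -0.259 to 0.147. The numbers were taken to pair the samples, although these ranges overlap. The members and lists were chosen with earlier results of these data known. Named were the 10 pigment genes, POLDIP2, all markers, the 3 genes most like each tested pigment gene, and in each role the genes called, the highest and lowest fold change, the highest level per kb and genes at the floor. MLPH, MYRIP and the genes whose lines do not overlap were named after their values were seen. HPS5 was not analysed here. For 1 marker and 1 lysosome gene, values are not reported here.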

Additional observations from a re-analysis of the deposited data

How the results depend on the processing

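The count of called pigment genes was 0 under all 16 alternatives, as was that of lysosome genes, and by replicate number it was 0 under 6. With the replicate block the pigment count was also 0, and the block changed no other limma call among the 5 pigment genes, the 55 melanosome genes or the 17 lysosome genes. With the block in DESeq2, the melanosome count was 1 (MYO7A), and it was 0 under the other 15 alternatives. Leaving out 1 library at a time, the log2 fold change of GPNMB ranged from -0.094, without WT replicate 3, to 0.44, and was -0.01 without POLDIP2 KO replicate 1, and that of TYRP1 from -0.48, without WT replicate 3, to 1.32. GPR143 ranged from -0.079, without WT replicate 1, to 0.13, with -0.02 and -0.01 without POLDIP2 KO replicates 2 and 3. PMEL kept its sign (-0.66 to -0.06), as did RAB27A (0.02 to 0.17). The cause of these sign changes was not tested. With a mean of at least 50, TYRP1 was not tested. Depth limits the 5 genes with a mean under 10 normalised counts, of which TYR and OCA2 never exceeded 3 reads in a library.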
